A study of Mus musculus with 6 samples.

Results

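Havcr1, Lcn2, Krt18, Krt20, Sox9, Vcam1, Cd44, Clu, Spp1 and Timp1 are transcripts by which damaged and dedifferentiated kidney tubules are commonly recognised. They were chosen by name, with earlier results of these data known. Each symbol matched 1 gene, so the set is 10 of the 54532 genes in the deposited tables. All 10 passed the filter on low counts, which retained 15816 genes. The values are RNA-sequencing counts from kidney tissue, in 3 libraries labelled WT (replicates 1, 2 and 3) and 3 labelled knockout, here Trpm2-/- (replicates 1, 2 and 4). All 6 kidneys are labelled as from C57BL/6J mice aged 6 to 8 weeks (the methods write C57BL/6 for the WT mice and give a slightly older range), and all received a single intraperitoneal dose of 18 mg/kg cisplatin, a platinum drug that is toxic to proximal tubules, 72 h before harvest. The Trpm2-/- mice lack, in every cell, exons that encode part of the transmembrane region of TRPM2, a calcium-permeable cation channel opened by ADP-ribose and oxidative stress. The comparison asks whether injury transcripts after cisplatin differ with the channel, and kidneys without cisplatin are not analysed here, so no value below is a response to the drug. By the methods the WT mice were purchased and the Trpm2-/- line was introduced from another institution, so colony and genotype cannot be told apart.

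A healthy tubule cell is polarised, carries transporters on its apical membrane and rarely divides. After toxic injury, surviving cells flatten, switch off transport genes and switch on a set of surface receptors, secreted proteins, keratins and developmental transcription factors, and part of them divide to refill the tubule. Havcr1 and Lcn2 encode proteins that are shed or secreted into urine and measured there as signs of acute injury. Krt18 and Krt20 build intermediate filaments, Sox9 is a transcription factor of developing and repairing tubules, and Cd44 and Vcam1 are adhesion receptors. Clu, Spp1 and Timp1 are secreted proteins that act as a chaperone, a matrix cytokine and an inhibitor of matrix metalloproteinases.

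Total counts on genes were between 14053307 and 17150089 per library, so that 3 counts correspond to 0.175 to 0.213 CPM of the total. All other CPM values are counts scaled to the TMM-normalized library size. Trpm2 counts were 5, 5 and 27 with the WT label and 10, 16 and 20 with the knockout label. This gene-level count covers the exons that the allele keeps and does not check the labels. The mitochondrial genome took 4.43% to 4.72% of counts in WT and 7.91% to 11.04% in Trpm2-/- libraries. The labels do not say that each library is a separate animal, so p-values measure the spread between these libraries, which may in part be technical.

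The 10 markers covered a wide range of abundance. On the FPKM scale, which is per gene length and allows genes to be compared with each other, Spp1 was the most abundant in WT kidneys at 6685 ± 512 FPKM (SD, n = 3), rank 7 of the whole table. Clu followed at 532, Havcr1 at 467, Lcn2 at 375 and Krt20 at 314 FPKM, and the ranges of neighbours in this order overlapped. Krt18 stood at 73.6 FPKM and Timp1 at 12.8 FPKM, each with a range apart from its neighbours. Sox9 at 3.64, Cd44 at 3.59 and Vcam1 at 2.93 FPKM were the least abundant, and their ranges overlapped. In Trpm2-/- kidneys the order of the means was the same except that Krt20, at 546 FPKM, stood above Lcn2, at 491 FPKM, with overlapping ranges. The lowest Cd44 value there, 5.33 FPKM, was just above the highest Vcam1 value, 5.21 FPKM.

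Of the 10 markers, 4 were higher in Trpm2-/- kidneys by the adjusted test, and they belong to 4 different roles, namely the transcription factor Sox9 (2.24-fold), the hyaluronan receptor Cd44 (1.94-fold), the protease inhibitor Timp1 (1.82-fold) and the keratin Krt20 (1.72-fold). The classical urinary markers Havcr1 (1.42-fold) and Lcn2 (1.30-fold) did not pass, nor did Krt18, Vcam1, Clu and Spp1, although the fitted change was above 0 for each of the 10, as it was for 51.6% of all genes. These 4 higher calls of 10 stand beside a background of 4.74% of all genes called higher, and beside 5.69% of the 9870 genes with an average of at least 10 CPM. No marker was lower by edgeR's quasi-likelihood test, at an adjusted or at an unadjusted p under 0.05, and none was lower by the DESeq2 Wald test either. The median log2 fold change of the 10 was 0.53, beside 0.02 for all genes tested. At an unadjusted p under 0.05 the higher calls were 7 of 10, beside 14.0% of all genes. In 5 markers, namely the 4 called and Havcr1, every Trpm2-/- library lay above every WT library, which held for 16.7% of all genes, while 0 markers lay wholly below (16.8% of all genes). In bulk kidney RNA, more cells that carry a transcript and more transcript per cell cannot be told apart, and this holds for every value below.

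**Figure D1:**
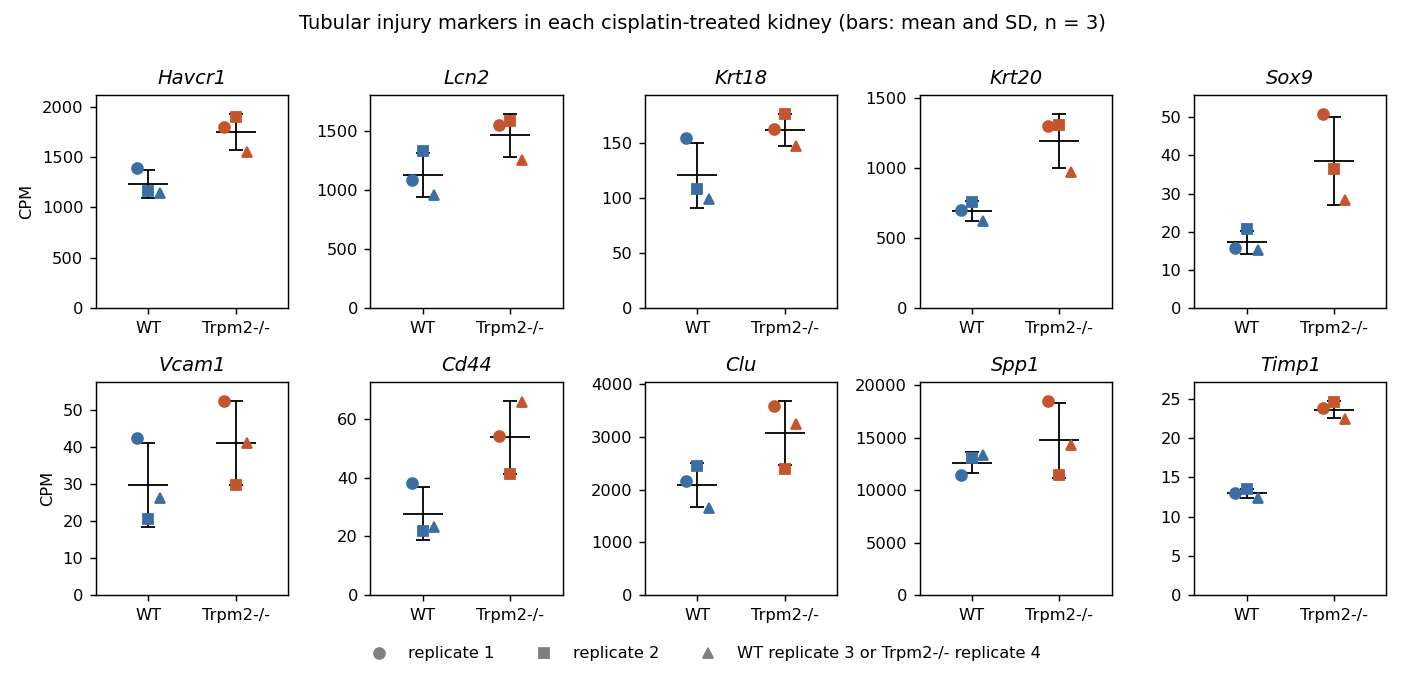
Normalized counts (CPM, linear axes from 0) of the 10 markers in each library, WT in blue and Trpm2-/- in orange, with the mean and SD of 3 libraries as bars and the replicate as symbol. Havcr1, Krt20, Sox9, Cd44 and Timp1 show no overlap between genotypes, and Timp1 has the tightest groups, 12.4 to 13.5 CPM against 22.4 to 24.6 CPM.

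**Figure D2:**
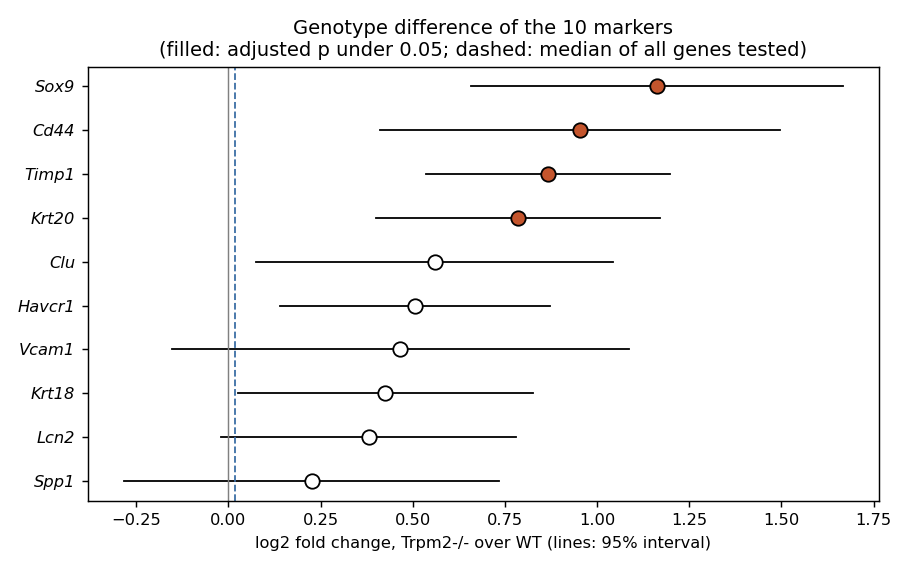
Log2 fold change of each marker, Trpm2-/- over WT, with its 95% interval as a line. Filled points, which are Sox9, Cd44, Timp1 and Krt20, have an adjusted p under 0.05, and the intervals of Vcam1, Lcn2 and Spp1 include 0.

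Promoter sequences are shown for 3 of the 4 called markers, Krt20, Cd44 and Timp1, so that the letters before their start sites can be read beside the values of these genes. They are from the RefSeq annotation of GRCm38.p6, which here gave promoters for 7 of the 10 markers. Sox9, Vcam1 and Clu had no entry. Each sequence is the 250 bases before the start site, written 5′ to 3′ on the strand of the gene. Capitals mark matches, on either strand, to GGAATG (bound by TEAD factors of the Hippo pathway), AACAAT (bound by SOX factors) or TATAAA (the TATA box, added after the sequences were seen).
Krt20 (chr11:99438154-99438403, minus strand): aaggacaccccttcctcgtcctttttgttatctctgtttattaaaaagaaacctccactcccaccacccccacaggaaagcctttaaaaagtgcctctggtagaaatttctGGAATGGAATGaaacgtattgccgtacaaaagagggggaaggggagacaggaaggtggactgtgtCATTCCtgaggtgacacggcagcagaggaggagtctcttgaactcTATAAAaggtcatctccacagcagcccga
Cd44 (chr2:102901666-102901915, minus strand): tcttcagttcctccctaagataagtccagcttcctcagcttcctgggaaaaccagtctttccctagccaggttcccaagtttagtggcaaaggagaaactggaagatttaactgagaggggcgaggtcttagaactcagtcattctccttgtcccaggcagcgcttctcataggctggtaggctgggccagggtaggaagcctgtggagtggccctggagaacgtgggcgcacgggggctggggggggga
Timp1 (chrX:20869916-20870165, plus strand): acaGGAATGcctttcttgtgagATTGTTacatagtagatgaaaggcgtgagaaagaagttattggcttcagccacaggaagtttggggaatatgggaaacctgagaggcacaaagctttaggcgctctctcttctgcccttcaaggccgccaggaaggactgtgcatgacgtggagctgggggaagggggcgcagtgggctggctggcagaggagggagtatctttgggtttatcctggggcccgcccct
The Krt20 promoter held GGAATG or its reverse complement 139, 134 and 74 bases before the start site, the first pair overlapping by 1 base, and TATAAA 29 bases before it. The Timp1 promoter held GGAATG 247 bases and the reverse complement of AACAAT 228 bases before the start site, and the Cd44 sequence held none of the motifs searched. Of all 32851 promoters of 300 bases (250 before and 50 after the start), 14.66% held GGAATG, 10.72% AACAAT and 13.62% TATAAA. The AP-1 site TGANTCA, in 7.808% of promoters, occurred in 1 of 7 markers, Havcr1, 10 bases after the start of 1 of its promoters. The STAT site TTCNNNGAA (8.298% of promoters) and the NF-kB consensus (4.505%) occurred in none of the 7, which says only that these letters are not in these windows. Each match is a description of the sequence, and no binding was measured.

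Among the regulators of the dedifferentiated state, Sox9 had the largest fitted change of the 10. The gene (ENSMUSG00000000567) lies on the plus strand at chr11:112782224-112787760 of GRCm38, the build of all positions given here. Sox9 is switched on in surviving tubule cells after injury and is linked to their return to division. Its level was 15.8, 20.7 and 15.2 CPM in WT replicates 1, 2 and 3, and 50.9, 36.4 and 28.3 CPM in Trpm2-/- replicates 1, 2 and 4. Every Trpm2-/- library exceeded every WT library, and Trpm2-/- replicate 1 was the highest. The log2 fold change was 1.16 (SE 0.225, 95% interval 0.66 to 1.67, edgeR adjusted p = 0.0115). Sox9 was also the 1 marker past a log2 fold change of 1 with an unadjusted p under 0.05, a threshold that 3.50% of all genes passed upward, and 0 markers passed it downward (4.10% of all genes). Without WT replicate 3 the change was 1.07 and no longer passed (edgeR adjusted p = 0.0578). Without Trpm2-/- replicate 1 it was 0.91 and passed (edgeR adjusted p = 0.0299), below the threshold of 1.

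The cytoskeletal markers were the keratins Krt18 and Krt20. Krt18 pairs with Krt8 in the filaments of simple epithelia, while Krt20 is a keratin of intestinal and urothelial surface cells that injured tubules also express. Krt20 (ENSMUSG00000035775, chr11:99428403-99438150, minus strand) stood at 697, 759 and 622 CPM in the WT libraries and at 1299, 1309 and 972 CPM in the Trpm2-/- libraries. The genotypes did not overlap, and within Trpm2-/- kidneys replicate 4 was the lowest. Krt20 was higher by 0.79 on the log2 scale (SE 0.171, 95% interval 0.40 to 1.17, edgeR adjusted p = 0.0189), and its rank by mean FPKM moved from 140 in WT to 46 in Trpm2-/- kidneys. This call did not hold without WT replicate 2 (0.85, edgeR adjusted p = 0.0622), WT replicate 3 (0.71, edgeR adjusted p = 0.115) or Trpm2-/- replicate 1 (0.72, edgeR adjusted p = 0.0518).

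Krt18 (ENSMUSG00000023043, chr15:102028180-102032027, plus strand) stood at 155, 108 and 99.4 CPM in the WT libraries and at 163, 176 and 148 CPM in the Trpm2-/- libraries. WT replicate 1 lay above Trpm2-/- replicate 4, so the groups overlapped. The difference came to 0.43 on the log2 scale (SE 0.178, 95% interval 0.03 to 0.82, edgeR adjusted p = 0.152). Without WT replicate 1 it was 0.64 and passed (edgeR adjusted p = 0.0407). Its partner Krt8, a type II keratin, had a log2 fold change of 0.20 (SE 0.173, edgeR adjusted p = 0.503). The FPKM ratio of Krt18 to Krt8 was 0.284 ± 0.0647 in WT and 0.331 ± 0.0205 in Trpm2-/- kidneys (SD, n = 3, two-sided exact permutation p = 0.4, also 0.4 after adjustment).

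The surface receptor Havcr1, also called kidney injury molecule, binds phosphatidylserine on dying cells and lets tubule cells engulf them. The gene (ENSMUSG00000040405) lies at chr11:46735080-46779578, plus strand. Its level was 1393, 1164 and 1142 CPM in the WT libraries and 1796, 1902 and 1554 CPM in the Trpm2-/- libraries. All Trpm2-/- values lay above all WT values. The log2 fold change of 0.51 (SE 0.164, 95% interval 0.14 to 0.87) had an unadjusted p of 0.0119 and an edgeR adjusted p of 0.0747. With the DESeq2 Wald test the same size of change passed (0.51, DESeq2 adjusted p = 0.0100). Of 75-base windows in Havcr1 transcripts, 1.95% also occur in Gm4926 or Timd2, so few reads could be shared with these genes.

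Cd44 (ENSMUSG00000005087, chr2:102811141-102901665, minus strand) encodes a receptor for hyaluronan and for osteopontin that repairing tubule cells and leukocytes carry. It stood at 38.2, 21.8 and 23.3 CPM in the WT libraries and at 54.2, 41.2 and 66.0 CPM in the Trpm2-/- libraries. The groups did not overlap, but the gap was narrow, since WT replicate 1 reached 38.2 CPM and Trpm2-/- replicate 2 lay at 41.2 CPM. Cd44 was higher by 0.95 on the log2 scale (SE 0.242, 95% interval 0.41 to 1.50, edgeR adjusted p = 0.0332). Of the 4 higher calls this one depended most on single libraries. It did not pass without WT replicate 2 (0.80, edgeR adjusted p = 0.132), WT replicate 3 (0.84, edgeR adjusted p = 0.140), Trpm2-/- replicate 1 (0.95, edgeR adjusted p = 0.0821) or Trpm2-/- replicate 4 (0.79, edgeR adjusted p = 0.0832). It passed without WT replicate 1 (1.25, edgeR adjusted p = 0.0119).

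Vcam1 (ENSMUSG00000027962, chr3:116109949-116129688, minus strand) encodes an adhesion molecule that binds integrins of leukocytes and marks both endothelium and tubule cells that fail to recover. It stood at 42.4, 20.7 and 26.1 CPM in the WT libraries and at 52.5, 29.6 and 41.1 CPM in the Trpm2-/- libraries. In both genotypes replicate 1 was the highest, and the groups overlapped. The log2 fold change of 0.47 had a wide 95% interval, from -0.15 to 1.09 (SE 0.277, edgeR adjusted p = 0.306), so a difference of this size was not detectable here.

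Of the 4 secreted markers, Timp1 passed the test, and Lcn2, Clu and Spp1 did not. Timp1 (ENSMUSG00000001131, chrX:20870166-20874735, plus strand), the inhibitor of matrix metalloproteinases, was among the least abundant of the 10 and had the least spread. It stood at 13.0, 13.5 and 12.4 CPM in the WT libraries and at 23.8, 24.6 and 22.4 CPM in the Trpm2-/- libraries. The coefficient of variation was 4.25% in WT and 4.65% in Trpm2-/- kidneys, and the gap between the genotypes was wide against it. Timp1 was higher by 0.87 on the log2 scale (SE 0.147, 95% interval 0.54 to 1.20, edgeR adjusted p = 0.00683). This call held in all 18 other settings, with a highest adjusted p of 0.0489. Timp1 lies within the span of Syn1 on the opposite strand, and Syn1 had 51 counts in all 6 libraries against 1731 for Timp1.

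Lcn2 (ENSMUSG00000026822, chr2:32384633-32388252, minus strand) encodes an iron-siderophore binding lipocalin of the distal nephron and of neutrophils. Its level was 1083, 1327 and 959 CPM in the WT libraries and 1547, 1584 and 1253 CPM in the Trpm2-/- libraries. WT replicate 2 lay above Trpm2-/- replicate 4, so the groups overlapped. For Lcn2 the fitted log2 fold change was 0.38 (SE 0.179, 95% interval -0.02 to 0.78, edgeR adjusted p = 0.199), and it passed in none of the other settings. Krt20 was also set against Lcn2 within each library. The FPKM ratio of Krt20 to Lcn2 was 0.876, 0.778 and 0.883 in WT and 1.14, 1.12 and 1.06 in Trpm2-/- libraries. These groups did not overlap, and the two-sided exact permutation p was 0.1, the smallest that 3 libraries against 3 allow (0.2 after adjustment over the 4 quantities compared this way). The ratio was chosen after the values were seen, and it sets a called marker against one that was not called. That choice is not covered by the adjustment, so the ratio adds no support.

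Clu (ENSMUSG00000022037, chr14:65968483-65981547, plus strand), an extracellular chaperone, stood at 2165, 2455 and 1646 CPM in the WT libraries and at 3582, 2403 and 3247 CPM in the Trpm2-/- libraries. Trpm2-/- replicate 2 lay within the WT range, and replicates 1 and 4 lay above it. Its fitted log2 fold change was 0.56 (SE 0.216, 95% interval 0.07 to 1.04, edgeR adjusted p = 0.124). The DESeq2 Wald test called it at the same size of change (0.56, DESeq2 adjusted p = 0.0397), and no other setting called it.

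Spp1 (ENSMUSG00000029304, chr5:104435118-104441050, plus strand), which encodes the secreted matrix cytokine osteopontin, was the marker with the smallest fitted change. It stood at 11457, 13024 and 13304 CPM in the WT libraries and at 18489, 11416 and 14282.5 CPM in the Trpm2-/- libraries. Trpm2-/- replicate 2 was the lowest of all 6 libraries and replicate 1 the highest. The spread was 7.91% of the mean in WT and 24.2% in Trpm2-/- kidneys. The log2 fold change of Spp1 was 0.23 (SE 0.227, 95% interval -0.28 to 0.74, edgeR adjusted p = 0.561). Of 75-base windows in Spp1 transcripts, 8.55% also occur in Gm42793, a gene within Spp1 on the same strand with 889 counts against 1303958 for Spp1.

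The summed level of the set is weighted towards its abundant members, Spp1 above all. The 10 markers took 1.73% ± 0.0291 of all counts in WT and 2.33% ± 0.386 in Trpm2-/- kidneys (SD, n = 3). The lowest Trpm2-/- library was at 1.97% and the highest WT library at 1.75%, with a two-sided exact permutation p of 0.1, the smallest possible (0.2 after adjustment). Spp1 itself took 1.16% to 1.26% of counts in WT and 1.87%, 1.19% and 1.50% in Trpm2-/- replicates 1, 2 and 4. The FPKM ratio of Krt20 to Krt18 was 4.41 ± 0.954 in WT and 5.46 ± 0.518 in Trpm2-/- kidneys (two-sided exact permutation p = 0.2, 0.267 after adjustment), with overlapping values.

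Across the 18 other settings the fitted change was above 0 for each of the 10 markers, and no direction turned. The number of markers called higher was 1 to 6. It fell from 4 to 2 without WT replicate 2 (Sox9 and Timp1), to 1 without WT replicate 3 (Timp1) and to 2 without Trpm2-/- replicate 1 (Sox9 and Timp1). The share of all genes called higher fell in the same fits, from 4.74% to 1.07%, 0.979% and 2.58%, so the drop was not limited to the markers. It rose to 5 without WT replicate 1, where Krt18 was added (3.39% of all genes called higher), and to 6 with the DESeq2 Wald test, where Havcr1 and Clu were added (6.92% of all genes).

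**Figure D3:**
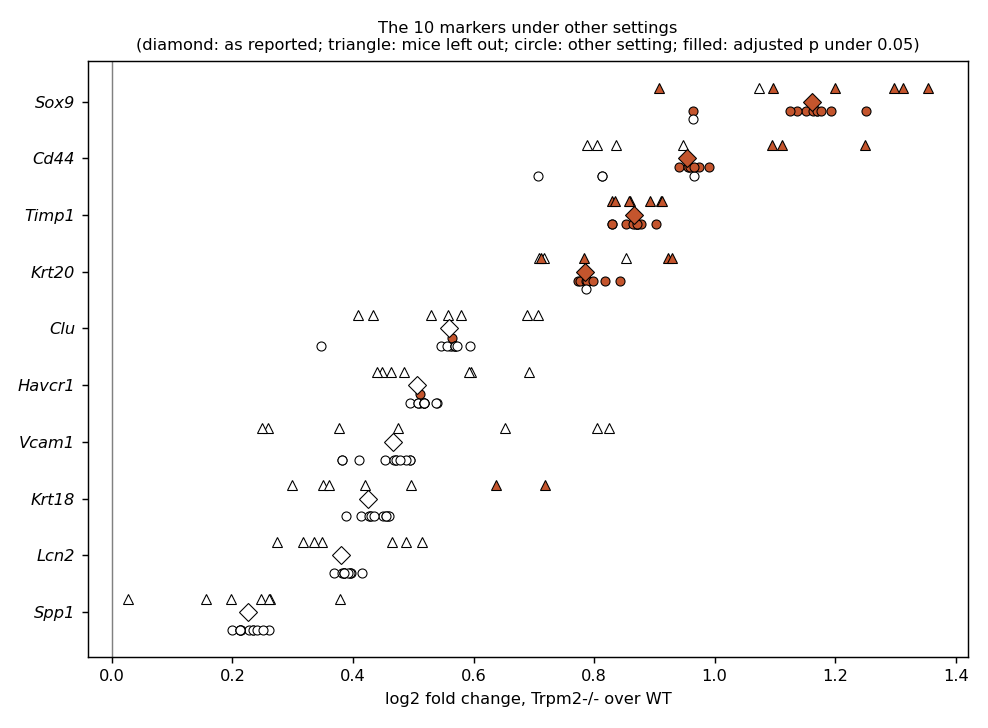
Log2 fold change of each marker, Trpm2-/- over WT, as reported (diamonds), with 1 or 2 libraries left out (triangles) and under other settings of the test (circles), filled where the adjusted p is under 0.05. All points lie above 0, Timp1 is filled throughout, Cd44 loses its call in 8 settings, and the lowest Spp1 value is 0.03.

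A further 37 injury and repair genes, all tested, were examined as a second list. This list holds other genes of the dedifferentiated tubule, stress-induced transcription factors, chemokines and acute-phase genes. It too was chosen with earlier results of these data known. Of the 37 genes, 9 were higher in Trpm2-/- kidneys and none lower by edgeR's quasi-likelihood test at an adjusted p under 0.05, beside 4.74% of all genes higher and 7.28% lower. At an unadjusted p under 0.05, 16 were higher and 2 lower (Dcdc2a and Ugt8a), beside 14.0% and 14.3% of all genes. The DESeq2 Wald test called 10 higher and none lower, beside 6.92% and 9.13% of all genes. The log2 fold changes of the 37 genes had a median of 0.34, beside 0.02 for all genes tested. Of these values 30 lay above 0, beside 51.6% of all genes.

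Vim and Ctgf had the smallest adjusted p of this list. Vim, the intermediate filament of mesenchymal and dedifferentiated epithelial cells, stood at 82.0, 65.7 and 59.3 CPM in WT and at 158, 146 and 180 CPM in Trpm2-/- libraries (log2 fold change 1.23, SE 0.157, edgeR adjusted p = 0.00261). Ctgf, a matricellular protein and target of Hippo signalling, stood at 173, 128 and 108 CPM in WT and at 334, 383 and 356 CPM in Trpm2-/- libraries (1.39, SE 0.182, edgeR adjusted p = 0.00282). Neither gene overlapped between genotypes, and both were called in all 18 other settings. Cyr61 (0.31, edgeR adjusted p = 0.405) and Ankrd1 (0.48, edgeR adjusted p = 0.381), listed as Hippo targets too, overlapped between genotypes and were not called.

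The other 7 called genes had smaller or less even differences. Cp, the acute-phase ferroxidase, had a log2 fold change of 1.17 (edgeR adjusted p = 0.0128). The transcription factors Fosl1 (0.87, edgeR adjusted p = 0.0105), Myc (0.65, edgeR adjusted p = 0.00981) and Atf3 (0.49, edgeR adjusted p = 0.0477) were higher, as were Anxa1, a phospholipid-binding protein that damps inflammation (0.74, edgeR adjusted p = 0.0403), and Il34, a ligand of the macrophage receptor Csf1r (0.71, edgeR adjusted p = 0.0499). Sox4, a developmental transcription factor, had the largest fitted change of the list, 1.89 (SE 0.537), but stood at 16.0 ± 5.28 CPM in WT (SD, n = 3) and at 112, 46.7 and 18.7 CPM in Trpm2-/- libraries. Its groups overlapped, Trpm2-/- replicate 1 was far above the others, and the call (edgeR adjusted p = 0.0499) was lost in 13 of 18 other settings. Cp and Fosl1 did not pass without WT replicate 2, Myc did not without WT replicate 2 or 3, and Atf3, Il34 and Anxa1 each lost the call in 5 of the 6 fits that left out 1 library. The count of 9 fell to 2 without WT replicate 2, to 4 without WT replicate 3 and to 5 without Trpm2-/- replicate 1, while the share of all genes called higher fell to 1.07%, 0.979% and 2.58%.

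Another list held 30 ligands, receptors, enzymes, family members and pairing partners of the 10 markers. Of these, 22 passed the filter, and Has2 and Timd4 had no counts. By edgeR's quasi-likelihood test 3 of the 22 were higher and 1 was lower in Trpm2-/- kidneys, beside 4.74% and 7.28% of all genes, so the 1 lower gene is no more than the background. Has3, which synthesises the Cd44 ligand hyaluronan, stood at 1.11, 1.03 and 1.90 CPM in WT and at 4.47, 4.30 and 4.79 CPM in Trpm2-/- libraries (log2 fold change 1.74, SE 0.340, edgeR adjusted p = 0.0121). Itgav, an integrin subunit that binds osteopontin, was higher by 0.75 on the log2 scale (SE 0.163, edgeR adjusted p = 0.0183), and Mmp14, a membrane-bound metalloproteinase, by 1.18 (SE 0.257, edgeR adjusted p = 0.0186). Lrp2, the endocytic receptor megalin that takes up Lcn2 from the filtrate, was lower by the same test, with a log2 fold change of -0.76 (SE 0.184, edgeR adjusted p = 0.0283). Lrp2 is also counted among the 16 proximal tubule markers below, of which 14 were lower, with a median log2 fold change of -1.51. Cd63, a tetraspanin that binds Timp1, had a log2 fold change of -0.56 and did not pass (edgeR adjusted p = 0.0566). Without WT replicate 2 none of the 4 calls remained, and without WT replicate 3 the count was 1 higher (Has3) and none lower, in fits that called 1.07% and 0.979% of all genes higher and 3.17% and 2.88% lower. Lrp2 did not pass without Trpm2-/- replicate 4, and Itgav did not without WT replicate 1.

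**Figure D4:**
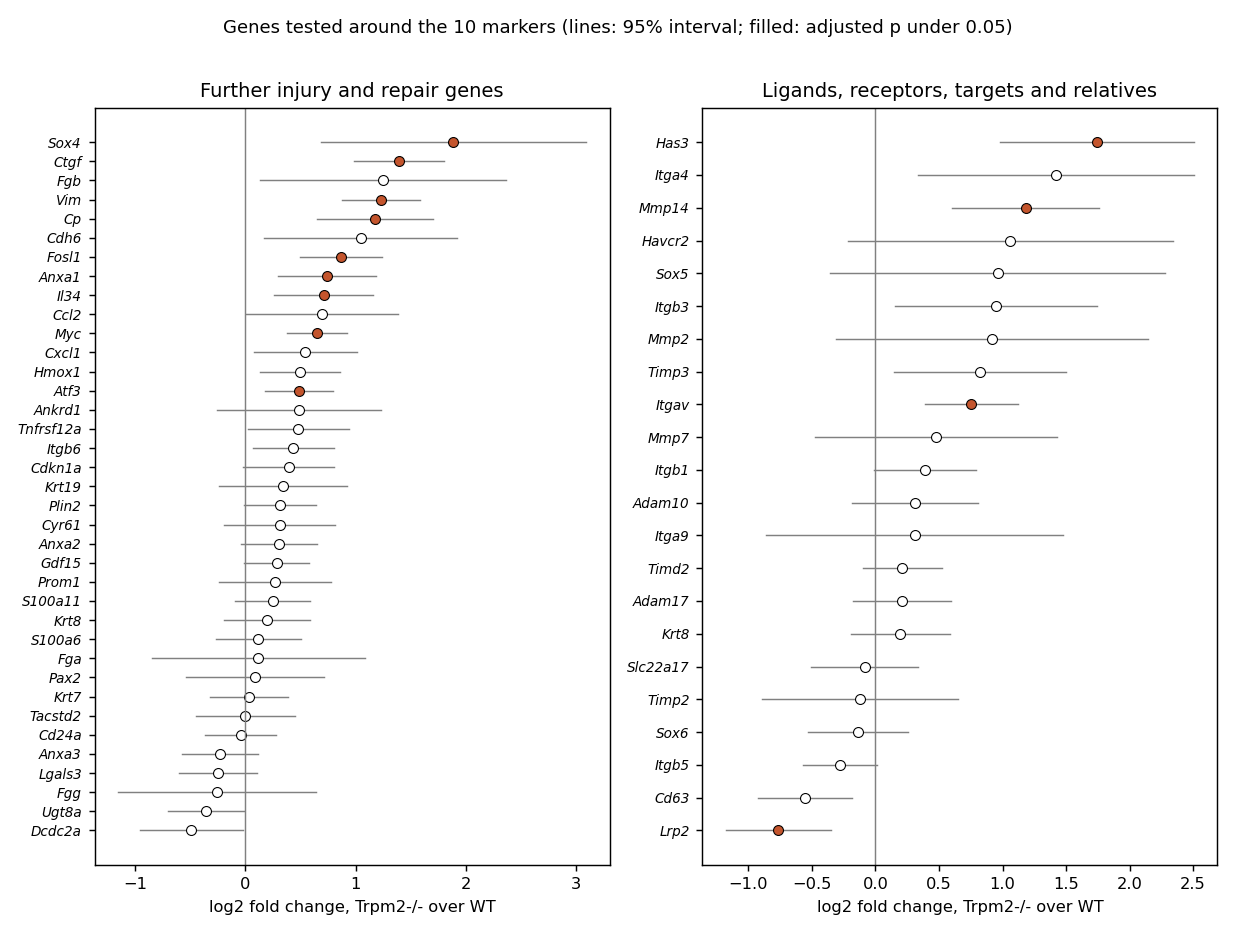
Log2 fold change, Trpm2-/- over WT, of the 37 further injury and repair genes and of the 22 tested ligands, receptors, targets and relatives, with 95% intervals as lines and filled points at an adjusted p under 0.05. The filled points are 9 to the right of 0 on the left panel, and 3 to the right and 1 to the left on the right panel.

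Markers of other cell types were set beside these values, because several of the 10 markers are also made outside tubules. All 16 proximal tubule markers were tested, 14 were lower in Trpm2-/- kidneys, beside 7.28% of all genes, and none higher by edgeR (2607 to 4201 summed FPKM against 8110 to 10838 in WT), with a median log2 fold change of -1.51. Of the 9 distal nephron markers tested, 3 were lower, namely Aqp2, Umod and Aqp3 (476 to 694 against 1068 to 1289 summed FPKM, a sum made up mainly by Aqp2 and Umod). The other 6 overlapped between genotypes and were not called, and 2 of them, Atp6v1g3 (0.01) and Foxi1 (0.28), lay above 0. Lower levels of proximal tubule markers thus went with genotype, as did higher levels of Sox9, Cd44, Timp1 and Krt20, and the part of the former in the latter was not tested.

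No leukocyte marker that was tested was called higher by edgeR. Of the 10 neutrophil markers, which bear on Lcn2, 4 were tested and none was called (4.84 to 10.97 against 3.90 to 16.3 summed FPKM), and Mpo was at 0 in all libraries. Of 10 macrophage markers, which bear on Cd44 and Spp1, 2 were lower (C1qa and C1qc) and none higher. These counts stand beside 7.28% and 4.74% of all genes. At an unadjusted p under 0.05, 2 were higher and 3 lower, beside 14.0% and 14.3% of all genes. The summed levels of these markers were 56.1 to 94.1 FPKM in Trpm2-/- and 67.2 to 95.7 FPKM in WT libraries. Lymphocyte markers summed to at most 1.53 FPKM in any library, and 1 of 8 was tested.

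Fibroblast and glomerular markers, which bear on Timp1, Cd44 and Vcam1, were less even. Fibroblast markers summed to 10.99 to 17.1 FPKM in WT and to 13.1 to 30.0 FPKM in Trpm2-/- libraries, with Acta2 higher (log2 fold change 1.46, edgeR adjusted p = 0.0467) and the other 6 tested not called. Of all genes 4.74% were called higher, so 1 call in a list this short is not clearly above that share. Podocyte and parietal markers summed to 36.4 to 46.4 FPKM in WT and to 64.0, 52.0 and 113 FPKM in Trpm2-/- replicates 1, 2 and 4, with Cldn1 higher (0.92, edgeR adjusted p = 0.00699) and 5 not called. All 6 lay above 0, beside 51.6% of all genes. Their median log2 fold change was 0.98, above the 0.53 of the 10 markers. At an unadjusted p under 0.05, 4 of the 6 were higher, beside 14.0% of all genes. Trpm2-/- replicate 4 stood apart here, and it was the highest library for Cd44 and the lowest Trpm2-/- library for Sox9, Krt20, Krt18, Havcr1, Lcn2 and Timp1.

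Endothelial markers, which bear on Vcam1, summed to 32.2 to 55.3 FPKM in WT and to 14.6, 15.0 and 40.7 FPKM in Trpm2-/- libraries, with Plvap lower and 7 not called. Of all genes 7.28% were called lower, which 1 gene of 8 does not clearly exceed. Urothelial markers, which bear on Krt20 and Krt18, summed to 52.2, 10.1 and 16.0 FPKM in WT and to 4.91 to 6.81 FPKM in Trpm2-/- libraries, with Upk3a and Psca lower of the 6 tested. These 2 lower calls of 6 stand beside the same 7.28% of all genes. Krt5 (log2 fold change 0.16) and Trp63 (0.66), markers of basal urothelium, lay above 0 and were not called. The part of urothelium in the Krt20 and Krt18 values was not tested. WT replicate 1, the library with the most urothelial transcript, was also the highest WT library for Havcr1, Krt18, Vcam1 and Cd44. It was not the highest for Krt20 (697 CPM, against 759 CPM in WT replicate 2), nor for Lcn2, Sox9, Clu, Spp1 or Timp1.

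**Figure D5:**
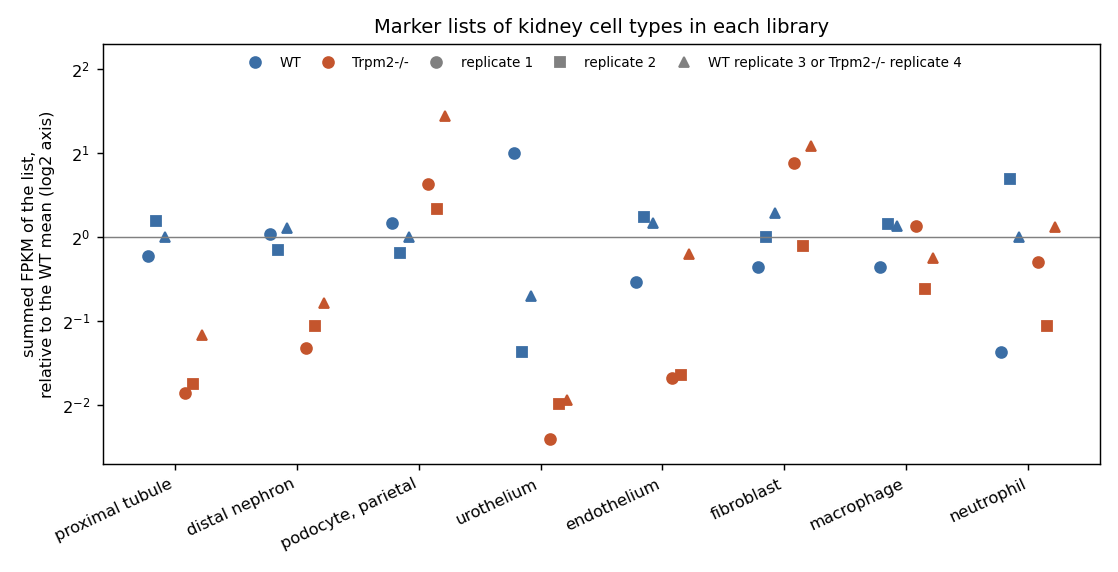
Summed FPKM of each cell type marker list except the lymphocyte list in each library, divided by the WT mean of that list, on a log2 axis. The proximal tubule, distal nephron and urothelial lists are lower in all Trpm2-/- libraries, WT replicate 1 stands out for urothelium and Trpm2-/- replicate 4 for the podocyte and parietal list.

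Leaving out WT replicate 1 and Trpm2-/- replicate 4 together, a choice made after these levels were seen, left 5 markers called higher. They were Krt18 (0.72, edgeR adjusted p = 0.0332), Krt20 (0.93, edgeR adjusted p = 0.0235), Sox9 (1.30, edgeR adjusted p = 0.0170), Cd44 (1.09, edgeR adjusted p = 0.0157) and Timp1. Of all genes, 4.16% were called higher in this fit. For several markers WT replicate 1 was the highest WT library or Trpm2-/- replicate 4 the lowest Trpm2-/- library. Larger changes follow in part from that choice, so this fit adds no support for the calls. With the mitochondrial genome removed before normalization, the 4 calls were the same genes as before, and the changes of Sox9 (1.18) and Krt20 (0.80) were nearly the same.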

How the data were processed

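Kidney RNA of cisplatin-treated mice, in 3 libraries labelled WT and 3 labelled knockout, was extracted with Trizol and made into libraries with the NEBNext Ultra II kit, and sequenced on an Illumina HiSeq instrument. Untreated mice are not analysed here. The submitters' processing notes name HISAT2, StringTie and mm9, without versions. Gene positions in the tables, however, were those of GRCm38 (GENCODE M21) for 10 of 10 markers and 98.33% of all genes, and are given as GRCm38. Whether counting used strand is not given in the sources used here. The authors deposited gene counts, without normalization, and FPKM values. Where the count was at least 10, FPKM equalled the count divided by gene length and a library total for 100% of values (within 0.1%). All columns were used.

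Counts were analysed with edgeR 4.0.16 in R 4.3.3 (filterByExpr defaults, TMM, genotype only, two-sided quasi-likelihood test, Benjamini-Hochberg adjustment over 15816 genes). Calls are at an adjusted p under 0.05, beside the thresholds of the methods (absolute log2 fold change above 1, p under 0.05). The common dispersion was 0.0445, a biological coefficient of variation of 0.211. Each standard error was obtained as the size of the log2 fold change over the square root of F. Intervals and the floor of 3 counts use replicate spread and counting error only. Ratios of FPKM, chosen after the values were seen, were compared by exact permutation. Within a genotype, no libraries were alike within sampling noise. The script was tested on simulated data.

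The members and lists were chosen with earlier results of these data known. Named genes are the 10 markers, of the 2 wider lists the called genes and up to 5 of smallest p, of each cell type list up to 3, and for each called marker the 2 genes of at least 1 CPM with the most alike profile. Dcdc2a, Ugt8a, Cyr61, Ankrd1, Krt8, Krt5, Trp63, Atp6v1g3, Foxi1, Has2, Timd4, Csf1r and genes named for shared sequence or overlap were named outside this rule, after values were seen. Alternatives were other normalizations and filters, DESeq2 1.42.0, limma-voom and limma 3.58.1 on log2(FPKM + 1) and log2(FPKM + 0.1), removal of the mitochondrial genome, a replicate block and leaving out libraries.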

Additional observations from a re-analysis of the deposited data

How the results depend on the processing

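Of the 18 other settings, 17 were planned. No direction of a marker turned, no marker was called lower in any setting, and the median of all genes moved by less than 0.1 on the log2 scale. With limma on log2(FPKM + 1) without a filter, 1 marker, 3 further injury genes, 0 partner genes higher and 0 partner genes lower were called. That fit called 0.364% of all genes higher and 1.40% lower. No marker was then above a log2 fold change of 1, as also with log2(FPKM + 1) after the filter (0 markers). Without a filter in edgeR, 1 further injury gene was lower, and 6 partner genes were higher and 2 lower. Of all genes, 4.37% were then higher and 5.86% lower. The DESeq2 Wald test gave 6 partner genes higher and 2 lower, beside 6.92% and 9.13% of all genes. With limma-voom 2 were lower, beside 7.28% of all genes. Leaving out 1 library gave 1 to 5 markers called higher and 0 to 2 past the log2 fold change of 1. It gave 2 to 10 further injury genes higher, 0 to 4 partner genes higher and 0 to 2 lower. In these fits 0.979% to 5.03% of all genes were called higher and 2.88% to 7.62% lower. Leaving out WT replicate 1 and Trpm2-/- replicate 4 together gave 2 markers past the log2 fold change of 1. In that fit 1 partner gene was higher and 0 lower, beside 4.16% and 5.93% of all genes. There 8 markers were without overlap, which fewer libraries reach more easily, and the share over all genes was not computed for this fit. Where a library is left out fewer libraries are compared, as in effect with the replicate block, and otherwise the cause was not tested.

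The replicate numbers 1 and 2 occur in both genotypes. Over all genes tested, the deviations of same-numbered libraries from their genotype means had correlations of 0.06 and -0.01. What these libraries share beyond the number is not given and was not tested. With the replicate block, WT replicate 3 and Trpm2-/- replicate 4 have no same-numbered partner. The genotype change in that fit therefore rests on replicates 1 and 2. It called 3 markers higher (Krt20, Sox9 and Timp1), and Cd44 was at 0.71 (edgeR adjusted p = 0.0638). Of the further injury genes 7 were higher, and of the partner genes 2 were higher and 0 lower. These counts stand beside 2.16% of all genes higher and 4.18% lower. With 3 libraries per genotype, the interval of a marker such as Vcam1 spans more than 1 log2 unit.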

Other observations

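For each of the 4 called markers, the genes with the most similar profile were sought among 12997 genes, by the root mean square difference of log2 CPM centred on its mean over the 6 libraries. The likeness describes these 6 libraries, carries no test and says nothing of shared function. Timp1 was most like Elk3, an ETS transcription factor (0.0604 log2 units, log2 fold change 0.90), and Ccp110, a centriolar protein (0.0685, log2 fold change 0.76). Krt20 was most like Ccna2, a cyclin of S phase (0.0584, log2 fold change 0.73), and Tcaf1 (0.0714, log2 fold change 0.69). Sox9 was most like Birc3, an inhibitor of apoptosis induced by NF-kB (0.101, log2 fold change 1.07), and Kif11, a mitotic kinesin (0.106, log2 fold change 1.20). Cd44 was most like Inhba, a subunit of activin A (0.108, log2 fold change 1.01), and St3gal1, a sialyltransferase (0.112, log2 fold change 0.87). Of these, Ccna2, Kif11 and Inhba did not pass the edgeR test (adjusted p = 0.121, 0.0675 and 0.0903).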
